A study of Mus musculus with 2 samples.

Results

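The prostaglandin pathway and its phospholipases were examined as 10 genes, named by symbol and found in the deposited table through their Ensembl mouse identifiers. They are the cytosolic phospholipases Pla2g4a and Pla2g4c, the phosphoinositide phospholipase Plcd4, the cyclooxygenases Ptgs1 and Ptgs2, the prostaglandin E synthases Ptges and Ptges2, the breakdown enzymes Ptgr1 and Hpgd, and the receptor Ptger4. Of the 10, 9 matched a row among the 19498 genes of the table, and Hpgd was not analysed here. The genes were chosen by pathway and selected on the deposited values of these libraries, whose LY500307 to control ratios were already known, so every fold below is a description and none is tested.

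The cells were 4T1, a metastatic mouse mammary carcinoma line grown in culture, and RNA was sequenced after ribosomal RNA depletion in 1 library of control-treated cells and 1 library of cells treated with LY500307. LY500307 is a synthetic agonist of estrogen receptor beta, and neither its dose nor the time of exposure is given in the sources used here. The study asked which RNAs differ between both treatments. Each group is 1 library of 1 line, so no spread between cultures is known, and all differences are between these 2 libraries.

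Prostaglandins are lipid signals made from arachidonic acid. Cytosolic phospholipase A2 frees the acid from membrane phospholipids, a cyclooxygenase converts it to prostaglandin H2, and a terminal synthase turns that into prostaglandin E2, which acts on the cell through EP receptors until it is oxidised and reduced to inactive forms. The cyclooxygenase encoded by Ptgs2 is the inducible form and is well known in mammary tumours, where prostaglandin E2 acts on tumour and immune cells.

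The promoter windows of 4 of the genes are shown because these genes take the main positions in the results: Ptgs2 and Pla2g4a, the most abundant and both higher with LY500307, Ptges, the lowest ratio, and Pla2g4c, the highest ratio. Each window runs from 250 bases before to 50 bases after a transcript start of RefSeq on GRCm38.p6, read 5′ to 3′ on the gene's strand. Capitals mark matches, on either strand, to any of 9 short motifs. For Pla2g4a and Pla2g4c, which have 2 annotated starts each, the start farthest upstream is shown. The windows are chr1:150099781-150100080 (plus strand) for Ptgs2, chr1:149961241-149961540 (minus strand) for Pla2g4a, chr2:30903248-30903547 (minus strand) for Ptges and chr7:13325417-13325716 (plus strand) for Pla2g4c.
Ptgs2: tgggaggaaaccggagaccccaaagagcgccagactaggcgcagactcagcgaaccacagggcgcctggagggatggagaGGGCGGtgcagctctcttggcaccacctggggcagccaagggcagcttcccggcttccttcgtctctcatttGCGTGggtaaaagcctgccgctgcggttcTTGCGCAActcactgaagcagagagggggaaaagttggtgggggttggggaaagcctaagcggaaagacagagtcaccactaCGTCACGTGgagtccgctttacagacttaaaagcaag
Pla2g4a: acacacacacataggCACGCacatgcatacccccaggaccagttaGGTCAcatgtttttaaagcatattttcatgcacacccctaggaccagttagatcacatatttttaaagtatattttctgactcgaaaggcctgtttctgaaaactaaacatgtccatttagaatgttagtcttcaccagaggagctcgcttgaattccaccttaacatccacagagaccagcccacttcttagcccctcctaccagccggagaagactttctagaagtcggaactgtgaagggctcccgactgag
Ptges: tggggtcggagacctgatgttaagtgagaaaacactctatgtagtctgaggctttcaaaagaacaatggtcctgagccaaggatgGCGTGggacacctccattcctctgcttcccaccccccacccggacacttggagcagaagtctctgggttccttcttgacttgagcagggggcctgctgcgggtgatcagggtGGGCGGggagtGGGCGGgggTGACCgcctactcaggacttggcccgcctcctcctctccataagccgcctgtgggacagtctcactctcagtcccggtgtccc
Pla2g4c: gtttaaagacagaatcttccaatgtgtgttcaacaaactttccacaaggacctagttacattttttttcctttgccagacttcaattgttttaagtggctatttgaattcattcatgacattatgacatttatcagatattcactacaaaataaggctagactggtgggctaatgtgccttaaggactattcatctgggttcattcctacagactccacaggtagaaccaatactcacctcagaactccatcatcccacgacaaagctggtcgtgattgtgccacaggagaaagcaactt

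All 10 genes had a window. The motifs searched were the cAMP response element core TGACG, found in 20.8% of all 32851 windows of this length, the E-box CACGTG (7.15%), the C/EBP core TTGCNNAA (10.8%), AP-1 TGANTCA (7.81%), the GC box GGGCGG (35.7%), the TATA box TATAAA (13.6%), the estrogen receptor element arm GGTCA (40.5%), the aryl hydrocarbon receptor core GCGTG (32.4%) and the NF-kB core GGGNNTTCC (5.82%). The Ptgs2 window held a palindromic C/EBP core that begins 69 bases before the start, a GC box, an aryl hydrocarbon receptor core, and a cAMP response element core that overlaps an E-box 17 bases after the start. The Ptges window held 2 GC boxes, at 53 and 42 bases before the start, with an estrogen receptor element arm at 33 and an aryl hydrocarbon receptor core at 165. The Pla2g4a window held an estrogen receptor element arm 205 bases before the start and an aryl hydrocarbon receptor core at 235. The Pla2g4c window held none of these letters. A match describes the sequence and is no evidence of binding.

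Recovered reads, the whole numbers behind the rescaled values of the table, totalled 14541874 in the control and 15104003 in the LY500307 library. A gene is called expressed here where the higher of its values reached a floor of 33.0, which 11384 genes did. Over these, the median log2 ratio was −0.02, and 5th and 95th percentiles lay at −0.44 and 0.38. All 8 mammary epithelial markers reached the floor, with 53162 and 48612 reads in sum and a median log2 ratio of −0.20. Intervals lay below 1 for 5 of them, against 23.7% of expressed genes, from Krt19 at 0.780 of the control value to Cldn4 at 0.875. They lay above 1 for Cdh1 at 1.08-fold and Krt14 at 2.56-fold, against 18.1% of expressed genes. The median GC content of these 8 transcripts was 56.6%. After removal of a trend in GC content and length, described below, their median log2 ratio was −0.02. The 9 leucocyte and myeloid markers summed to 180 and 213 reads, of which Cd68 and Cd14 gave most and the pan-leucocyte gene Ptprc 2 and 4, and Adgre1 and Tyrobp were not analysed here. The 6 mast cell markers summed to 4 and 0 reads, the 8 endothelial and platelet markers to 32 and 46, and the 7 fibroblast markers to 354 and 367, of which Pdgfra gave 271 and 285. The part of other cells in the folds below was not tested.

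Among the 9 genes, the phospholipase and cyclooxygenase genes Pla2g4a and Ptgs2 had the most reads, and both were moderately higher with LY500307, while the inducible prostaglandin E synthase gene was lower. Pla2g4a was 1.29-fold and Ptgs2 1.27-fold higher, and Ptges stood at 0.795 of the control value. The scarce transcripts of Pla2g4c, Plcd4 and Ptger4 were higher by larger folds, each resting on few reads. Ptgs1, Ptges2 and Ptgr1 had counting intervals that span 1.

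Levels were compared between genes as recovered reads per kilobase of the longest protein-coding transcript. Which transcripts these cells make is not known, so the order between genes also rests on that choice, which counting error does not cover. In the control library, Ptgs2 stood highest at 650 reads per kilobase and Pla2g4a next at 505. Ptgr1 followed at 131, Ptges2 at 74.5, Ptges at 74.0 and Ptgs1 at 47.8. Ptger4, Pla2g4c and Plcd4 were the lowest, at 3.93, 2.65 and 1.94 reads per kilobase. Neighbours in this order differed beyond counting error except Ptges2 and Ptges, Ptger4 and Pla2g4c, and Pla2g4c and Plcd4. In the LY500307 library the levels of the upper genes kept that order, with 874 for Ptgs2, 689 for Pla2g4a, 153 for Ptgr1, 75.9 for Ptges2, 62.5 for Ptges and 58.9 for Ptgs1. There Ptges2 lay above Ptges beyond counting error, while Ptges and Ptgs1 did not differ beyond it. Pla2g4c, Ptger4 and Plcd4 then stood at 14.5, 9.96 and 9.68 reads per kilobase, with no neighbouring pair among these apart beyond counting error.

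**Figure D1:**
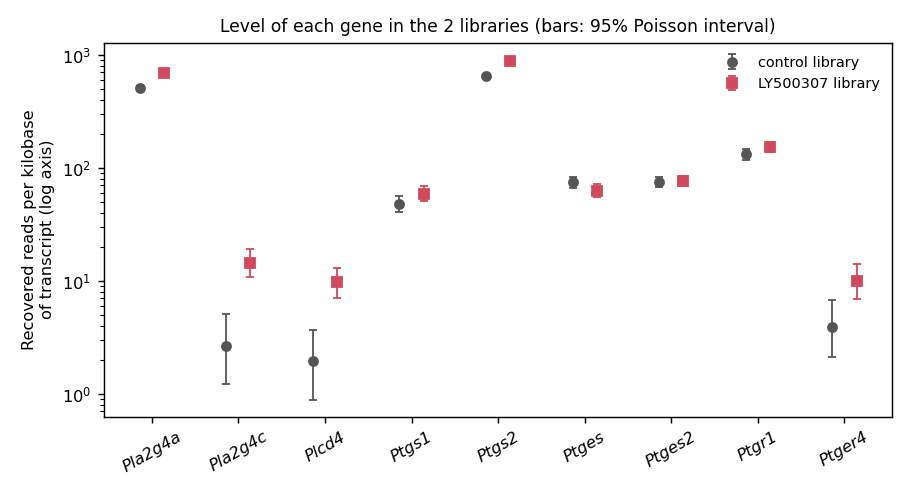
Recovered reads per kilobase of transcript (log axis) for the 9 genes with a row, in the control library (grey circles) and the LY500307 library (red squares), 1 library each, with 95% Poisson intervals as bars. Ptgs2 and Pla2g4a stand highest in both libraries, at 650 and 505 reads per kilobase in the control library, and Pla2g4c, Plcd4 and Ptger4 lowest.

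Pla2g4a (ENSMUSG00000056220), on chromosome 1, encodes cytosolic phospholipase A2 alpha, the calcium-dependent enzyme that supplies most arachidonic acid for prostaglandins. Its deposited value was 1485 in the control and 1910 in the LY500307 library, from 1441 and 1968 recovered reads. The LY500307 value was 1.29-fold higher, with a 95% counting interval of 1.20 to 1.38. Intervals here cover counting error alone and, as reads carry no molecular identifiers, may be too narrow even for that. An interval wholly above 1 was found for 18.1% of expressed genes and an interval wholly below 1 for 23.7%, so it is no mark of an unusual gene.

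Pla2g4c (ENSMUSG00000033847), on chromosome 7, encodes cytosolic phospholipase A2 gamma, which in humans acts without calcium. Its value was 9.28 in the control and 47.5 in the LY500307 library, from 9 and 49 reads. This is a 5.13-fold higher value, with a wide interval of 2.49 to 11.9. Its log2 ratio of 2.24 ranked 2 from the top among the expressed genes. The annotation places an unprocessed pseudogene copy, Pla2g4c-ps, beside the gene, and the sources used here do not say how reads matching both were counted.

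Plcd4 (ENSMUSG00000026173), on chromosome 1, encodes phospholipase C delta 4, which cleaves phosphatidylinositol bisphosphate into diacylglycerol and inositol trisphosphate and is not an enzyme of prostaglandin synthesis. It had a value of 9.28 in the control and 43.7 in the LY500307 library, from 9 and 45 reads. The fold was 4.71 (2.27 to 10.95), and the log2 ratio of 2.12 ranked 3 from the top. Plcd4 overlaps Usp37 and Zfp142 on the opposite strand. Whether the counting used strand is not given, so reads of these neighbours cannot be told apart from those of Plcd4. Usp37 had 675 and 794 reads (fold 1.11, 0.998 to 1.23) and Zfp142 546 and 489 (fold 0.843, 0.745 to 0.954). The part of these neighbours in the reads of Plcd4 was not tested.

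Pla2g4c and Plcd4 were the only members at least 1.5-fold apart on the log2 scale among the 8 that were expressed, and both also passed 2-fold. Of all expressed genes 1.8% passed 1.5-fold upward and 1.97% downward, and 0.413% passed 2-fold upward and 0.22% downward. These members were proposed with their differences known, so nothing is read from that count. Both reached the floor only through the LY500307 library, and with a floor on the mean of both values neither was kept and no member was 1.5-fold higher, against 1.31% of all genes. Large ratios were also commoner at this depth. Among the 963 genes whose higher value lay between 33.0 and 66.0, 11.6% were at least 1.5-fold and 3.84% at least 2-fold higher. The folds of Pla2g4c and Plcd4 were not apart beyond counting error. The ratio of their reads was 1 in the control and 1.09 in the LY500307 library, a change of 1.09-fold with an interval of 0.348 to 3.40, which is too broad to show that they differed alike.

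Ptgs1 (ENSMUSG00000047250), on chromosome 2, encodes cyclooxygenase 1, the form that most tissues make constitutively. Its value was 141 in the control and 164 in the LY500307 library, from 137 and 169 reads, a fold of 1.16 with an interval that spans 1 (0.922 to 1.47). Ptgs2 (ENSMUSG00000032487), on chromosome 1, encodes cyclooxygenase 2, the inducible form. Its value was 2985 in the control and 3776 in the LY500307 library, from 2896 and 3891 reads. The LY500307 value was 1.27-fold higher (1.21 to 1.33). The difference was not larger for Ptgs2 than for Ptgs1 beyond counting error, as the read ratio of Ptgs1 to Ptgs2 went from 0.0473 to 0.0434, a factor of 0.918 (0.725 to 1.16).

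**Figure D2:**
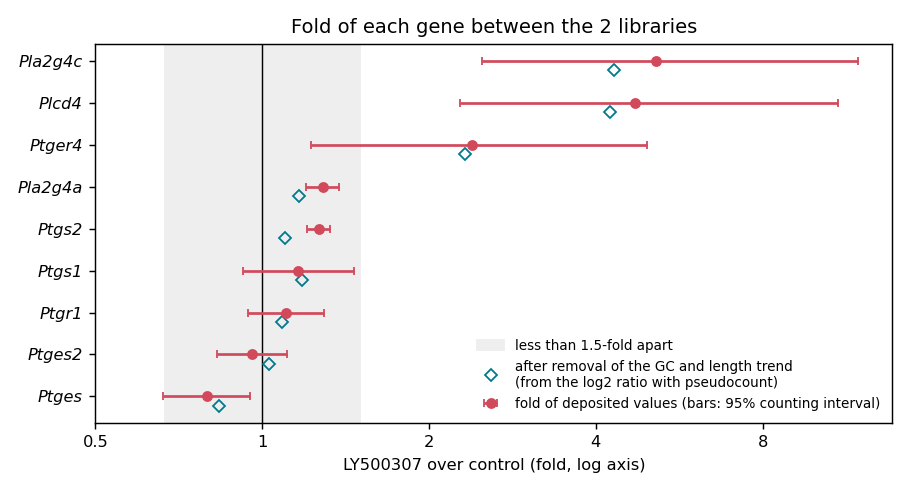
LY500307 over control fold (log axis) of the 9 genes with a row. Red circles are folds of the deposited values with 95% counting intervals, open diamonds the folds after removal of the trend in GC content and length, and the shaded band spans less than 1.5-fold. Pla2g4c and Plcd4 lie at 5.13 and 4.71 with wide intervals, Pla2g4a and Ptgs2 at 1.29 and 1.27 with narrow intervals, and Ptges at 0.795.

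Ptges (ENSMUSG00000050737), on chromosome 2, encodes microsomal prostaglandin E synthase 1, the inducible synthase that works in concert with cyclooxygenase 2. Its value was 278 in the control and 221 in the LY500307 library, from 270 and 228 reads. The LY500307 value was 1.26-fold lower, with an interval of 1.05 to 1.51, and Ptges was the only member whose interval lay wholly below 1. Ptges2 (ENSMUSG00000026820), also on chromosome 2, encodes the membrane-associated synthase 2, which is made constitutively. It had a value of 382 in the control and 367 in the LY500307 library, from 371 and 378 reads, and stood at 0.959 of the control value (0.829 to 1.11).

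Ptgs2 and Ptges catalyse consecutive steps, and their transcripts differed in opposite directions. The read ratio of Ptgs2 to Ptges was 10.7 in the control and 17.1 in the LY500307 library, a 1.59-fold higher ratio (1.32 to 1.92) that does not depend on how the libraries are scaled. The ratio of Pla2g4a to Ptges went from 5.34 to 8.63, 1.62-fold higher (1.33 to 1.96). The ratio of Pla2g4a to Ptgs2 stayed close, at 0.498 and 0.506, a factor of 1.02 (0.934 to 1.11). Of all 36 pairs of the 9 genes, 22 had an interval that excludes 1. Among the 15 pairs of the 6 genes with at least 50 reads in each library there were 6. Of these, 4 set Ptges against Pla2g4a, Ptgs1, Ptgs2 or Ptgr1, and the others set Ptges2 against Pla2g4a or Ptgs2. The pairs share genes that were chosen with their ratios known, and pairs of other genes were not counted. Nothing is therefore read from these counts.

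The transcripts of these genes differ in base composition, and the log2 ratio followed composition across the whole table. Across 11349 expressed nuclear genes, which are not independent replicates and share both libraries, its Spearman correlation with transcript GC content was −0.61 and with transcript length 0.24. The most AT-rich decile of genes had a median log2 ratio of 0.19 and the most GC-rich −0.29. Ptgs2, at 40.02% GC, belongs to the most AT-rich decile, and its log2 ratio of 0.34 lay within that decile's 5th to 95th percentile range of −0.14 to 0.55. Pla2g4a, at 42.1%, had 0.36 in a decile with a median of 0.13 and a range of −0.20 to 0.42. Ptges, at 53.1%, had −0.33 in a decile with a median of −0.07 and a range of −0.39 to 0.27. Pla2g4c and Plcd4, at 43.4% and 49.4%, lay above the ranges of their deciles, which ended at 0.42 and 0.37. Those ranges pool genes of all levels, while these genes had 9 control reads each and were chosen with their ratios known. Large ratios were commoner at low depth, so the ranges do not show how unusual these ratios are.

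After removal of a smooth trend in GC content and length, the log2 ratio of Ptgs2 went from 0.34 to 0.14, a fold of 1.10 that is below its counting interval. That of Pla2g4a went from 0.36 to 0.22, a fold of 1.16, also below its interval. That of Ptges went from −0.33 to −0.26 and that of Ptgs1 from 0.21 to 0.24. Pla2g4c and Plcd4 changed little, from 2.24 to 2.11 and from 2.12 to 2.08. The higher ratio of Ptgs2 to Ptges was then 1.32-fold instead of 1.59-fold. The higher ratio of Ptgs2 to Ptges2 went from 1.32-fold (1.13 to 1.54) to 1.07-fold. What part of the differences comes from composition was not tested beyond this.

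**Figure D3:**
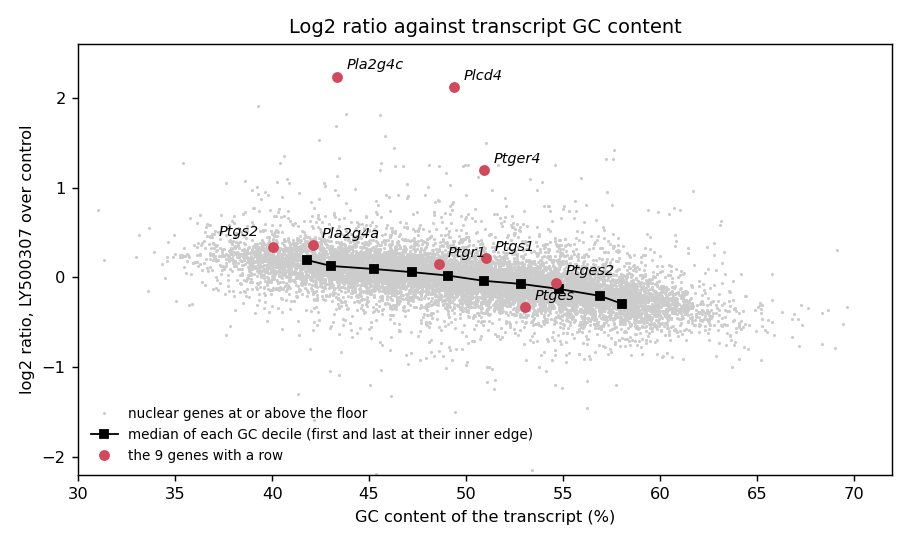
Log2 ratio of LY500307 over control against transcript GC content (%) for expressed nuclear genes (grey points), with the median of each GC decile (black squares) and the 9 genes with a row (red). Ptgs2 and Pla2g4a, at 40.02% and 42.1% GC, lie among the AT-rich genes whose medians are above 0. Pla2g4c and Plcd4, which have few reads, lie above the medians at their GC content, which pool genes of all levels.

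Ptgr1 (ENSMUSG00000028378), on chromosome 4, encodes prostaglandin reductase 1, which reduces 15-oxo-prostaglandins after their oxidation and also inactivates leukotriene B4. Its value was 309 in the control and 342 in the LY500307 library, from 300 and 352 reads, a fold of 1.10 with an interval that spans 1 (0.944 to 1.29). The other breakdown gene, Hpgd, encodes the dehydrogenase that makes these 15-oxo forms.

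Ptger4 (ENSMUSG00000039942), on chromosome 15, encodes EP4, a prostaglandin E2 receptor that raises cAMP. Its value was 13.4 in the control and 32.0 in the LY500307 library, from 13 and 33 reads. The fold was 2.39 (1.22 to 4.95), but the higher value lay just under the floor of 33.0, whereas that of Plcd4, at 43.7, lay just above it. Ptger4 overlaps Ttc33 on the opposite strand, which had 277 and 288 reads (fold 0.979, 0.827 to 1.16). No prostanoid receptor of the 9 listed reached the floor. After Ptger4 the receptor genes with the most reads were Ptger1, a calcium-coupled prostaglandin E2 receptor, with 10 and 7 reads, and Ptgdr2, a prostaglandin D2 receptor, with 3 and 12 (fold 3.77, 1.02 to 20.8), both named after their values were seen. Ptger2, Ptgdr and Ptgfr were not analysed here.

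The larger phospholipase and eicosanoid families were described by 12 lists, with 130 genes beside the 10. Of these, 68 were expressed. None was at least 1.5-fold higher, and 2 passed that fold in the other direction, against 1.8% and 1.97% of expressed genes. Their median log2 ratio was −0.10 against −0.02 for all expressed genes, 20 of the 68 lay above 0 against 47.2% of all genes, and counting intervals lay above 1 for 6 and below 1 for 19, against 18.1% and 23.7%. The median GC content of these transcripts was 52.0% against 49.95% for all genes, and after removal of the trend their median log2 ratio was −0.03.

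Pla2g4a and Pla2g4c had the 2 highest log2 ratios of 11 expressed phospholipase A2 genes, whose median was −0.02. They were chosen with their ratios known, so this rank describes the choice and nothing is read from it. Pla2g4c also reached the floor only through the LY500307 library. The most abundant by deposited value, Pafah1b2, a catalytic subunit of platelet-activating factor acetylhydrolase, stood 1.08-fold higher (1.02 to 1.14) on 2534 and 2897 reads. Its log2 ratio went from 0.11 to −0.05 after removal of the trend. Among the other members of this list, none was 1.5-fold apart. Of the other cytosolic forms, Pla2g4b had 8 and 10 reads and Pla2g4e 15 and 9, and no difference was detectable for them at this depth. Plcd4 was the highest of 7 phospholipase C genes, of which 3 lay above 0, with a median of −0.12. It too was chosen with its ratio known and reached the floor only through the LY500307 library. Plcb3 and Plcg2, the forms with the highest mean deposited values, had 3128 and 2921 reads (fold 0.879, 0.836 to 0.925) and 1004 and 982 (fold 0.921, 0.842 to 1.01). The log2 ratio of Plcb3 went from −0.19 to −0.01 after removal of the trend. All 4 expressed phospholipase D genes lay below 0, with a median of −0.24, whereas 47.2% of all expressed genes lay above 0. Among them were Pld2 at 0.846 of the control value (0.737 to 0.971) and Pld3 at 0.916 (0.756 to 1.11). This shared direction did not outlast the trend correction, with which Pld3 moved from −0.13 to 0.11 and Pld2 from −0.24 to −0.10. Gpld1 and Pld1 stayed below 0, at −0.34 and −0.31.

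In prostanoid synthesis 6 of 12 listed genes reached the floor, with a median of 0.08, and none was 1.5-fold apart. Beside Ptgs2, the most abundant was Ptges3, an HSP90 co-chaperone also described as a cytosolic prostaglandin E synthase. It was 1.20-fold higher (1.15 to 1.25) on 3536 and 4496 reads, and its log2 ratio went from 0.26 to 0.15 after removal of the trend. Some terminal synthases of other prostanoids were scarce. The prostaglandin D synthase Ptgds had 9 and 12 reads, Hpgds 1 and 2, and the prostacyclin synthase Ptgis 3 and 2. Akr1b3, also on this list, was not scarce, with 1591 and 1619 reads (fold 0.958, 0.893 to 1.03). In breakdown and transport the median over 6 genes was −0.16. Slco2a1, which encodes the prostaglandin uptake carrier, had 4118 and 3714 reads and stood at 0.849 of the control value (0.812 to 0.888). In the control library it had 578 reads per kilobase, against 650 for Ptgs2. The efflux pump gene Abcc4 had 959 and 1022 reads (fold 1.003, 0.918 to 1.10).

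**Figure D4:**
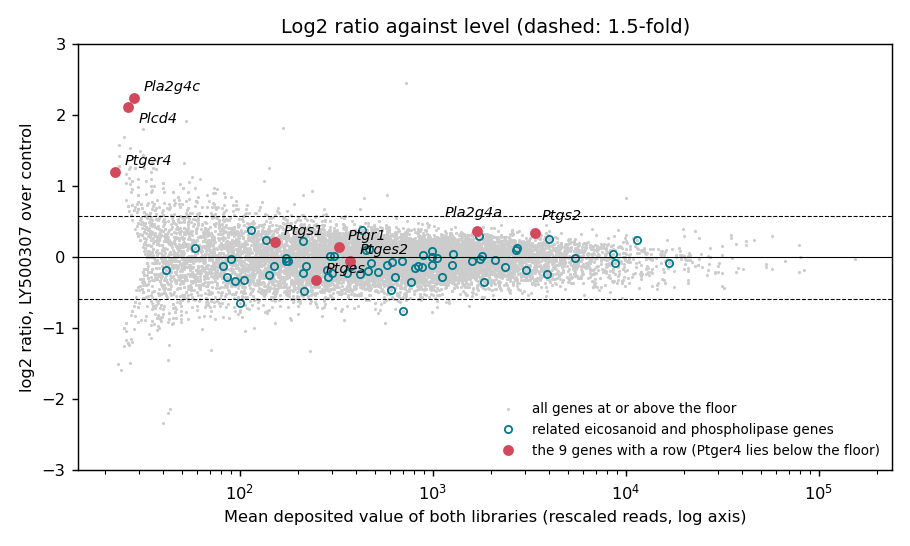
Log2 ratio of LY500307 over control against the mean deposited value of both libraries (log axis) for all expressed genes (grey), the related eicosanoid and phospholipase genes (open circles) and the 9 genes with a row (red), with dashed lines at 1.5-fold. Pla2g4c, Plcd4 and Ptger4 lie at the low end of the levels where grey points also spread widest, and Ptgs2 and Pla2g4a at high levels inside the 1.5-fold lines.

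In the neighbouring lipid routes no expressed gene was 1.5-fold apart. Only 2 lipoxygenase pathway genes reached the floor, the leukotriene A4 hydrolase gene Lta4h with 1274 and 1254 reads (fold 0.927, 0.857 to 1.003) and the epidermal enzyme gene Aloxe3 with 122 and 153 (fold 1.18, 0.925 to 1.51). Of the epoxygenase list, Cyp2c55, a cytochrome P450 of arachidonic acid, was 1.31-fold higher (1.14 to 1.5002) on 361 and 501 reads, and Cyp4f16 stood at 0.880 (0.744 to 1.04). In activation and reacylation of arachidonic acid the median over 11 genes was −0.07, with Acsl5 at 0.989 of the control value (0.952 to 1.027) and Lpgat1 1.09-fold higher (1.034 to 1.15). The log2 ratio of Lpgat1 went from 0.13 to −0.03 after removal of the trend. The endocannabinoid enzymes Dagla and Abhd12 stood at 0.911 (0.828 to 1.001) and 0.877 (0.769 to 0.999). Anxa1, whose protein annexin A1 restrains phospholipase A2, was 1.18-fold higher (1.15 to 1.21) on 10178 and 12726 reads, with 43.6% GC and a log2 ratio that went from 0.24 to 0.13 after removal of the trend. Anxa2 stood at 0.940 (0.920 to 0.961), with a log2 ratio of −0.09 before and 0.005 after that removal.

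Among 12 factors known to act on Ptgs2 and Ptges expression, 3 had log2 ratios above 0, against 47.2% of expressed genes, with a median of −0.09 against −0.02. None was 1.5-fold higher and 2 were 1.5-fold lower, against 1.8% and 1.97% of expressed genes. The list was not split by whether a factor raises or lowers expression, so these counts have no single meaning for Ptgs2 or Ptges. The median GC content of its transcripts was 53.6%, and its median log2 ratio was −0.09 also after removal of the trend. Cebpb, whose protein binds the C/EBP site of the Ptgs2 promoter, stood 1.69-fold lower (1.52 to 1.89) on 860 and 539 reads. Its transcript is 67.2% GC, and its log2 ratio went from −0.76 to −0.36 after removal of the trend. Cebpd, from the same family, stood 1.58-fold lower (1.18 to 2.12) on 119 and 80 reads, with a log2 ratio of −0.65 before and −0.62 after. Nfkb1 and Mapkapk2, the most abundant of the list, stood at 0.975 (0.917 to 1.04) and 0.908 (0.858 to 0.962). The log2 ratio of Mapkapk2 went from −0.14 to 0.07 after removal of the trend. The Ptgs2 transcript held 15 copies of the pentamer ATTTA, the core of AU-rich elements, against a median of 2 per transcript, and 3.75% of expressed nuclear genes had at least as many. Copies were counted over whole transcripts, without matching for length or GC content, and Ptgs2 belongs to the most AT-rich decile.

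**Figure D5:**
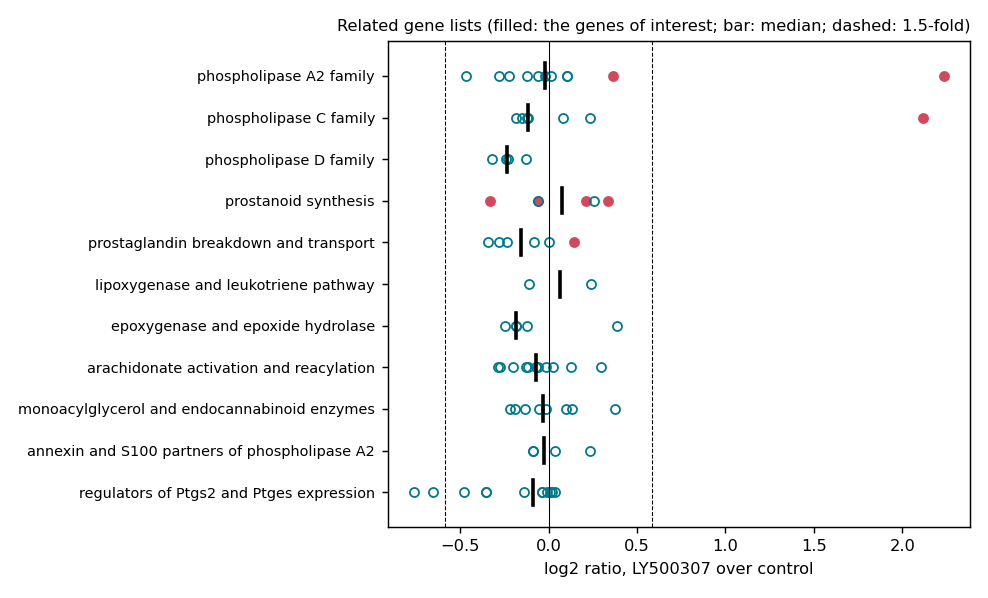
Log2 ratio of LY500307 over control for each expressed gene in 11 related lists, with 1 point a gene, bars at list medians and dashed lines at 1.5-fold. Filled points are Pla2g4a, Pla2g4c, Plcd4, Ptgs1, Ptgs2, Ptges, Ptges2 and Ptgr1. Outside 1.5-fold lie Pla2g4c and Plcd4 on the higher side and Cebpb and Cebpd on the lower side.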

How the data were processed

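The deposited table gives 1 signal per gene and library. Tests on its values showed rescaled read counts: each column is whole multiples of 1 step, 1.03059 in the control and 0.970322 in the LY500307 library, and 99.95% and 99.96% of values divided by the step lay within 0.01 of a whole number. CASAVA 1.8, Bowtie2 and build mm9 appear in the submitters' processing notes, with no role. For the counter, the annotation, the use of strand and the scaling, nothing is given in the sources used here.

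Symbols came from GENCODE M21 and matched 19443 of 19498 identifiers. Log2 ratios were computed from the deposited values plus a pseudocount of 1.03, their 5th percentile above 0, which understates the difference of scarce genes. The floor of 33.0 on the higher value was their 40th percentile. Folds of single genes carry no pseudocount. Their 95% intervals are exact Clopper-Pearson intervals of the treated share of reads, and changes of read ratios carry exact conditional odds ratio intervals (scipy 1.17.1). With 1 library per group no test was made and no count model could be fitted.

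GC content and length were those of the longest protein-coding transcript, known for 99.88% of expressed genes, 11349 of them nuclear. The trend was a Huber regression on splines of both, 5 degrees of freedom each (statsmodels 0.14.6), with both limited to their 1st to 99th percentiles. The steps were tested on simulated data.

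The members, lists and tests were chosen with earlier results of these data known. Named are all members, the 2 most abundant genes of each related list and those at least 1.5-fold apart that were expressed. Others were named after their values were seen. Alternatives were a 10 times larger pseudocount, other floors, scaling to library totals, median-centring and removal of the trend.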

Additional observations from a re-analysis of the deposited data

How the results depend on the processing

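The counts of members at least 1.5-fold and at least 2-fold higher, 2 each, stayed at 2 with a 10 times larger pseudocount, a floor of 50 reads, scaling to library totals, median-centring and with the composition trend taken out, and both became 0 with a floor on the mean of both values, a setting chosen after seeing the data, because neither gene reached it. Without a floor both were 3, since Ptger4 then counts, and 13.4% and 8.57% of all genes passed these folds. The related genes at least 1.5-fold higher numbered 8 without a floor instead of 0, and those lower 5 instead of 2. With the trend removed 1 was lower. Of the 9 log2 ratios, all stayed within their counting intervals under the larger pseudocount and both other scalings, and 7 did with the trend removed, the exceptions being Ptgs2 and Pla2g4a. No direction reversed among those whose interval excludes 1, and Ptges2, whose interval spans 1, went from −0.06 to 0.04 with the trend removed. The larger pseudocount lowered the log2 ratio of Pla2g4c to 1.56 and of Plcd4 to 1.46. No paired analysis was possible because each group has 1 library. Genes with few reads are limited by depth, and with 1 library per group no interval includes variation between cultures.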

Other observations

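The noncoding transcripts Ptgs2os and Ptgs2os2, named after their values were seen, were higher with LY500307 as well. Ptgs2os is a noncoding transcript on the opposite strand that starts just before Ptgs2 and lies between it and Pla2g4a on chromosome 1. It had 118 reads in the control and 197 in the LY500307 library and was 1.57-fold higher (1.24 to 1.99), with a log2 ratio of 0.65 that was 0.51 with the composition trend taken out. A second such transcript, Ptgs2os2, on the other side of Ptgs2, had 70 and 109 reads (fold 1.47, 1.08 to 2.01), with a log2 ratio of 0.55 before and 0.33 after. The ratio of Ptgs2os to Ptgs2 reads was 0.0407 and 0.0506, a change of 1.24-fold whose interval spans 1 (0.979 to 1.58). Gm44329, a microRNA gene model between Pla2g4a and Ptgs2, had 1 and 2 reads, and no difference was detectable for it at this depth. In GENCODE M21 neither Ptgs2os nor Ptgs2os2 overlaps Ptgs2. The annotation behind the counts and its use of strand are not given, and how reads near the Ptgs2 start were assigned was not tested.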
